A study of Homo sapiens with 6 samples.

Results

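MicroRNAs of the miR-34, miR-192, miR-194 and miR-215 groups were followed in K562 cells upon over-expression of RUNX1. The 7 members are hsa-miR-34a-5p, hsa-miR-34a-3p, hsa-miR-34b-5p, hsa-miR-34c-5p, hsa-miR-192-5p, hsa-miR-194-5p and hsa-miR-215-5p, written without the species prefix from here on and chosen by name as microRNAs known to respond to p53. They are 7 of 2596 microRNA entries and of 28846 small RNA entries in the count tables, and each had at least 1 count. K562 is an erythroleukemia cell line without functional p53. All samples were K562 cells grown in RPMI medium with fetal calf serum, transduced with the lentiviral vector SIEW and harvested after 10 days in culture. The control cells received the empty vector, which expresses GFP only, and the RUNX1 cells received the same vector with human RUNX1 and GFP. Each condition had 3 samples, which the study describes as independent transductions. The RUNX1 transcript is not among the measured small RNAs, so the over-expression itself could not be checked here.

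p53 is a transcription factor that is stabilized by DNA damage and other stress and activates genes for cell cycle arrest and apoptosis. MicroRNA genes are among its targets. The miR-34 microRNAs repress cyclin-dependent kinases, MYC and BCL2, and miR-34a also has a described role in megakaryocytes. The miR-192, miR-194 and miR-215 microRNAs restrain the cell cycle, act on the p53 antagonist MDM2, and are best known from gut, liver and kidney. In a p53-deficient line the members are followed without their best known activator.

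The mature sequences of 6 of the 7 members were taken from RefSeq on GRCh38.p14, all but miR-34c-5p. They are shown with the seed, bases 2 to 8 from the 5′ end, in capitals, since the seed selects the target mRNAs and groups the members. The miR-449 microRNAs are added because they share seeds with the miR-34 members.
miR-34a-5p: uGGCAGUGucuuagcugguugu
miR-449a: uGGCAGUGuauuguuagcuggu
miR-449b-5p: aGGCAGUGuauuguuagcuggc
miR-34b-5p: uAGGCAGUgucauuagcugauug
miR-449c-5p: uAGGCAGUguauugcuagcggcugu
miR-192-5p: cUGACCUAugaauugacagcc
miR-215-5p: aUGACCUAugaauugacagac
miR-194-5p: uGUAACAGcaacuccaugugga

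Among the sequences taken, the seed of miR-34a-5p is shared by miR-449a and miR-449b-5p. miR-34c-5p could not be placed in a seed group, since its sequence was not among them. The seed of miR-34b-5p begins 1 base earlier in the same stretch and is shared by miR-449c-5p and miR-2682-5p, of which the latter had 1 count in all samples together. miR-192-5p and miR-215-5p share their seed and 19 of 21 bases. Counted from 1 at the 5′ end of miR-192-5p, they differ by C1A and C20A. A read without its end bases can thus match both, and the treatment of such reads is not given in the sources used here. miR-194-5p has a seed of its own.

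The hairpins lie at 4 places in the genome (GRCh38, RefSeq and GENCODE 29). MIR34A, on chromosome 1 from 9151668 to 9151777 on the minus strand, lies in an exon of the lincRNA MIR34AHG. MIR34B, on chromosome 11 from 111512938 to 111513021, and MIR34C, from 111513439 to 111513515, lie on the plus strand with 417 bases between them. MIR192, on chromosome 11 from 64891137 to 64891246, and MIR194-2, from 64891355 to 64891439, lie on the minus strand in exons of the lincRNA MIR194-2HG, with 108 bases between them. MIR215, on chromosome 1 from 220117853 to 220117962, and MIR194-1, from 220118157 to 220118241, lie side by side on the minus strand, opposite an intron of IARS2. miR-194-5p is made from both MIR194-1 and MIR194-2 with the same sequence, and its counts cannot be divided between them. Its reads thus match both places, and the treatment of such reads is not given in the sources used here. The level of miR-194-5p and its ratios to other microRNAs can depend on that treatment, which was not tested.

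Total counts ranged from 1618248 to 6193319 in control and from 7918551 to 15245007 in RUNX1 samples. The smallest amount that can be shown, 3 counts, was 1.85 CPM (counts scaled to 1e+06 per library) in the smallest library and 0.197 in the largest. Intervals and floors cover counting error only. Levels, unlike these floors, are given as CPM after TMM scaling. TMM sets the libraries to a common scale on the assumption that most small RNAs do not change. The scaling matters here. miR-10a-5p alone took 5.81% to 7.02% of the control counts and 24.5% to 29.3% of the RUNX1 counts. Its part in the effect of the scaling was not tested. Scaling to library size alone moved the median log2 fold change of all 947 tested small RNAs by -0.70, and scaling on microRNAs only by -0.19. Changes are therefore also given relative to that median. This takes out a shift common to all small RNAs, whichever scaling is used. Library names of the control and RUNX1 samples carry different letters, and any difference in library preparation that these letters stand for cannot be told apart from the condition. The erythroid microRNAs miR-451a, miR-144-3p, miR-144-5p and miR-486-5p, the markers of the labelled line, were present in every sample. Their summed levels were 4429 to 5064 CPM in control, against 2333 to 3697 CPM with RUNX1. With TMM scaling 22.6% of all tested microRNAs were called down-regulated and 33.4% up-regulated. Of the erythroid ones 3 were called down-regulated and miR-144-3p up-regulated, the latter at a log2 fold change of 1.02. With library size alone miR-144-3p was at 0.32 and not called, and the other 3 stayed called.

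Upon RUNX1 over-expression miR-34a-5p and miR-34c-5p were up-regulated from very low levels, 5.92-fold and 4.0-fold on the CPM scale. miR-34b-5p had too few counts to be tested with them. miR-215-5p was down-regulated, to 0.564 of its control level. miR-192-5p, by far the most abundant member, and miR-194-5p did not pass the fold-change threshold, and their direction depended on the scaling. The ratio of miR-192-5p to its seed mate miR-215-5p was higher in all 3 RUNX1 samples than in any control sample.

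The thresholds of the study were used for calls, a P-value below 0.05 together with a log2 fold change of 0.5 or more in either direction. Of the 7 members, 5 passed the filter on low counts. The edgeR quasi-likelihood test called 2 of these 5 up-regulated and 1 down-regulated, and the same 3 were called with the adjusted P-value. Of all tested small RNAs 57.6% were called, 28% up-regulated and 29.6% down-regulated, and of the tested microRNAs 56%. A call alone therefore does not set the members apart from the rest. With scaling to library size alone, the up-regulated share of all calls was 18.7% instead of 48.6%, and with scaling on microRNAs 38.2%. P-values measure the spread between these samples.

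**Figure D1:**
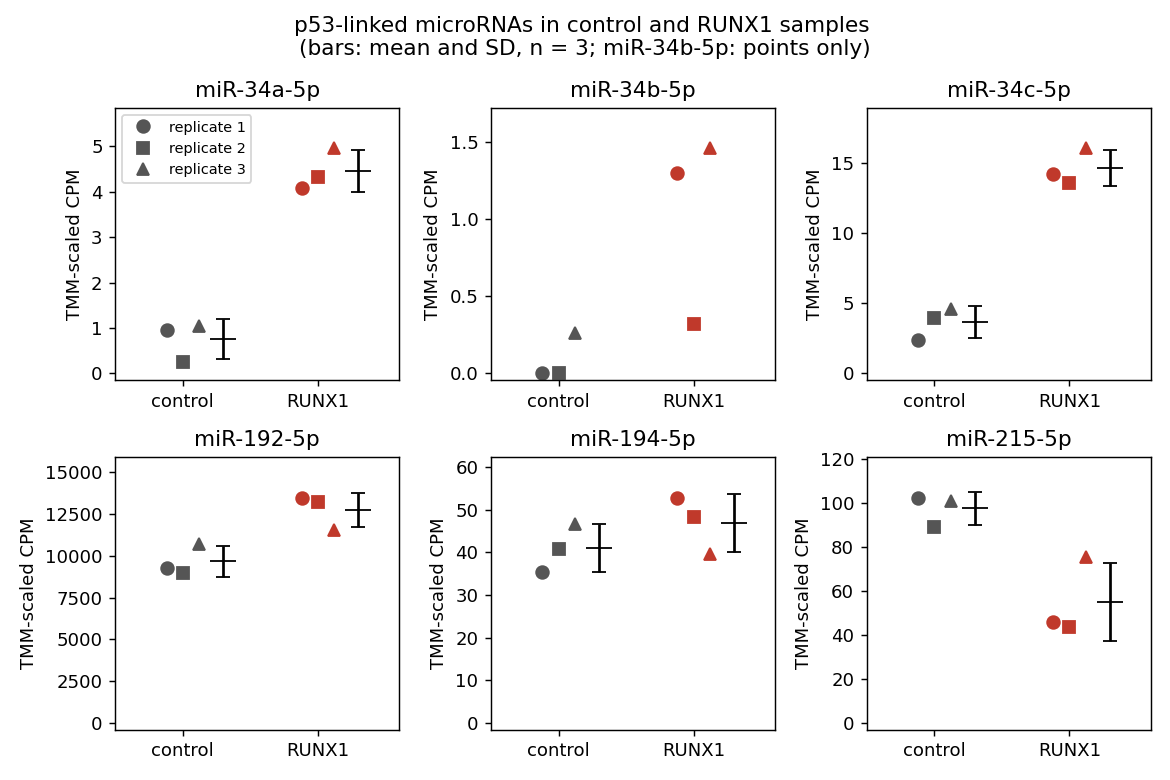
TMM-scaled CPM (y axis) of 6 members in each control and RUNX1 sample, with the replicate number as the symbol and the mean and SD of 3 samples as black bars; miR-34b-5p has points only, since its counts are at most 15. The RUNX1 samples lie above all control samples for miR-34a-5p, miR-34c-5p and, on this scale but not without TMM scaling, miR-192-5p, overlap them for miR-194-5p, and lie below them for miR-215-5p.

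miR-34a-5p, the guide arm of the best studied p53 target among microRNAs, was counted 2, 2 and 8 times in the 3 control libraries. In the RUNX1 libraries the numbers were 47, 27 and 34. On the TMM scale these were 0.956, 0.248 and 1.05 CPM against 4.08, 4.32 and 4.96 CPM. All RUNX1 samples lay above all control samples, also without TMM scaling. The means were 0.753 ± 0.44 CPM in control against 4.45 ± 0.458 CPM with RUNX1 (mean ± SD, n = 3 each). The log2 fold change was 2.66 (SE 0.421, edgeR, Benjamini-Hochberg adjusted p = 0.000566), or 2.73 above the median of all tested small RNAs. By this value miR-34a-5p ranked 21 among 598 tested microRNAs. It passed the filter on low counts through the RUNX1 samples only, so the filter itself favoured a call. In control replicates 1 and 2 its counts were under the floor of 3, so the size of the rise is imprecise. The log2 fold change was 3.39 without control replicate 3 and 2.08 without control replicate 2.

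miR-34c-5p, encoded with miR-34b on chromosome 11, was the most abundant of the miR-34 members. It had 5, 32 and 35 counts in control libraries, and 164, 85 and 110 with RUNX1. The scaled levels were 2.39, 3.97 and 4.61 CPM in control and 14.2, 13.6 and 16.1 CPM with RUNX1. The conditions did not overlap, with or without TMM scaling. The log2 fold change of 1.89 (SE 0.232, edgeR, Benjamini-Hochberg adjusted p = 0.000125) lay 1.95 above the median of all tested small RNAs. Its rank among the 598 microRNAs was 49. In fits that each left out 1 library, its log2 fold change ranged from 1.79 to 2.08.

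miR-34b-5p, from the neighbouring hairpin, did not pass the filter. Its counts were 0, 0 and 2 in control, against 15, 2 and 10 with RUNX1. Summed over libraries and set against the scaled library sizes, 2 counts against 27 gave a ratio of 9.73 (95% exact interval of the counting error 2.44 to 84.4). RUNX1 replicate 2, with 0.32 CPM, lay close to control replicate 3, with 0.263 CPM. Without TMM scaling the conditions overlapped. In the fit of all small RNAs with at least 1 count, miR-34b-5p was called up-regulated, as the only further member. The passenger arm miR-34a-3p had 1 count in control replicate 3, 1 in RUNX1 replicate 3 and none elsewhere, so a change was not detectable at this depth.

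The other arms of the miR-34b and miR-34c hairpins were also sparse. miR-34b-3p had 1, 0 and 0 counts in control, against 5, 3 and 2 with RUNX1, a pooled ratio of 7.2 (95% exact interval of the counting error 1.02 to 312.6). miR-34c-3p had 5 counts in RUNX1 replicate 1 and none in the other libraries. The 4 miR-34 members together had 3.35, 4.22 and 6.06 CPM in control, against 19.6, 18.2 and 22.6 CPM with RUNX1. They remained rare in both conditions. Within a library, miR-34c-5p outnumbered miR-34a-5p 2.5, 16 and 4.38 times in control, against 3.49, 3.15 and 3.24 times with RUNX1. The log2 of this ratio was 2.48 ± 1.37 in control against 1.72 ± 0.0769 with RUNX1 (mean ± SD, n = 3 each, exact two-sided permutation test, p = 0.6), and the conditions overlapped. The difference of -0.77 rested on control replicates 1 and 2, since it was -1.35 without the former and -0.0085 without the latter.

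The seed mates of the miR-34 members come from the MIR449 hairpins in an intron of CDC20B, a locus known from ciliated cells. Of the 3 on the list, 2 were tested and 1 was called, beside 56% of all tested microRNAs. miR-449a, with the seed shown for miR-34a-5p, held 6, 17 and 19 counts in control, against 55, 24 and 29 with RUNX1. Its log2 fold change was 0.85 (SE 0.253, edgeR, Benjamini-Hochberg adjusted p = 0.0174), which became 0.15 and was not called with library size alone. miR-449c-5p, which has the seed of miR-34b-5p, had 5.20 ± 0.174 CPM in control against 4.96 ± 1.46 CPM with RUNX1 (mean ± SD, n = 3 each), with a log2 fold change of -0.039 (SE 0.267). Its P-value of 0.887 does not show that it was unaffected, and with library size alone the log2 fold change was -0.75. miR-449b-5p had 8 counts in control and 8 in RUNX1 libraries and was not tested.

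miR-192-5p, the p53-responsive microRNA of the MIR192 and MIR194-2 transcript, was counted 19373, 72532 and 81551 times in control. In RUNX1 libraries it was counted 155533, 82517 and 79168 times. It made up 98.5% to 98.6% of all member counts in control and 98.8% to 99.2% in RUNX1 samples, and ranked between 16 and 19 among microRNAs in every library. The scaled levels were 9265, 9001 and 10739 CPM in control and 13492, 13202 and 11555 CPM with RUNX1. RUNX1 samples lay above control on this scale and below it without TMM scaling. The log2 fold change of 0.40 (SE 0.125, edgeR, Benjamini-Hochberg adjusted p = 0.0215) stayed under the threshold of 0.5. With library size alone it turned to -0.30. Relative to the median of all tested small RNAs it was 0.46, and between 0.38 and 0.60 over all alternatives. The median moves with the scaling, so this range does not settle the direction of the change. Without RUNX1 replicate 3, the lowest RUNX1 sample, the log2 fold change was 0.55 and miR-192-5p was called up-regulated.

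miR-194-5p, which shares a transcript with miR-192 on chromosome 11 and lies beside miR-215 on chromosome 1, had 74, 329 and 354 counts in control. The RUNX1 libraries held 609, 301 and 271 counts. On the TMM scale these were 35.4, 40.8 and 46.6 CPM against 52.8, 48.2 and 39.6 CPM, and the conditions overlapped. The log2 fold change was 0.18 (SE 0.165, edgeR, Benjamini-Hochberg adjusted p = 0.367). It was -0.52, and called down-regulated, with library size alone, and -0.012 with scaling on microRNAs. Relative to the median of all tested small RNAs it was 0.25. miR-194-5p was not shown to change.

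miR-215-5p, the seed mate of miR-192-5p, had 214, 717 and 767 counts in control, against 528, 272 and 517 in RUNX1 libraries. The scaled levels were 102.3, 89.0 and 101.0 CPM in control and 45.8, 43.5 and 75.5 CPM with RUNX1. All RUNX1 samples lay below all control samples on both scales, with RUNX1 replicate 3 nearest to control. The log2 fold change was -0.83 (SE 0.215, edgeR, Benjamini-Hochberg adjusted p = 0.00873), or -0.76 relative to the median of all tested small RNAs. Without RUNX1 replicate 3 it was -1.03. Among the RUNX1 samples this library also lay nearest to control for the erythroid miR-451a, miR-144-5p and miR-486-5p. For miR-486-5p it had 678 CPM, against 294 and 343 CPM in RUNX1 replicates 1 and 2. Control samples had 686 to 806 CPM. The same library lay farthest from control for miR-144-3p, with 252 CPM against 225 and 249 CPM, and for miR-34a-5p and miR-34c-5p. Because miR-192-5p had 90.5 to 303 times as many counts as its near-identical seed mate, the level of miR-215-5p can depend on how shared reads were counted, which was not tested.

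**Figure D2:**
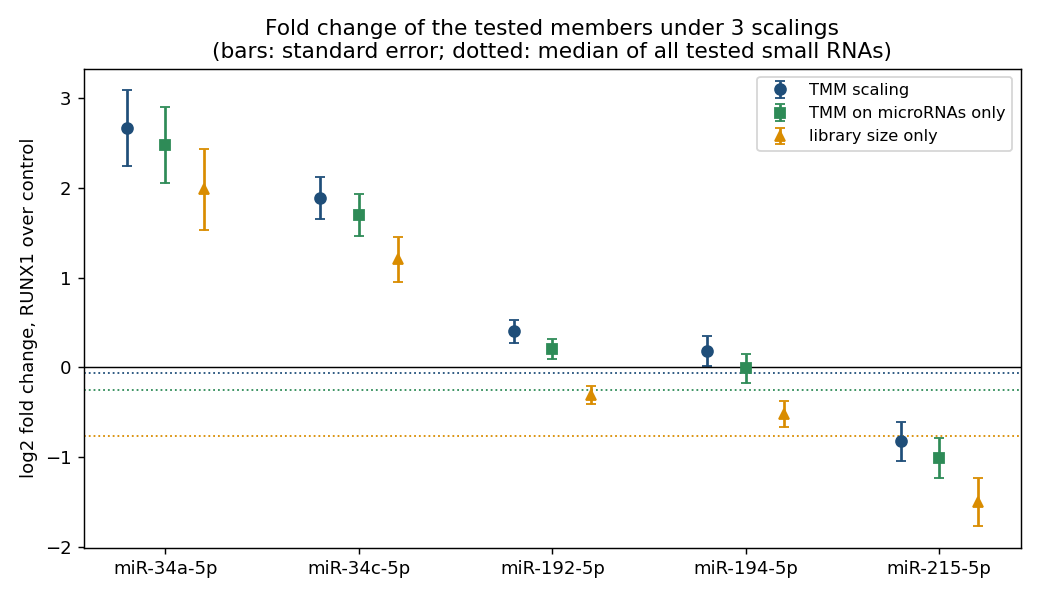
Log2 fold change of RUNX1 over control (y axis) of the 5 tested members under 3 scalings, with the standard error as bars and the median of all 947 tested small RNAs under each scaling as a dotted line. miR-34a-5p and miR-34c-5p lie above 1 and miR-215-5p below -0.8 under all 3, while miR-192-5p and miR-194-5p change sign with library size alone, which lowers the median to -0.76.

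Ratios within a library need no scaling between libraries. Those with miR-194-5p or miR-215-5p can still depend on how reads with several matches were counted, which was not tested. The ratio of miR-192-5p to miR-194-5p was 262, 220 and 230 in control, against 255, 274 and 292 with RUNX1. On the log2 scale this was 7.89 ± 0.129 in control against 8.10 ± 0.097 with RUNX1 (mean ± SD, n = 3 each), a difference of 0.21, and the conditions overlapped (exact two-sided permutation test, p = 0.2). The ratio of miR-192-5p to miR-215-5p was 90.5, 101.2 and 106 in control, against 295, 303 and 153 with RUNX1. The log2 ratio was 6.63 ± 0.119 in control against 7.90 ± 0.558 with RUNX1 (mean ± SD, n = 3 each), a difference of 1.27 with no overlap (exact two-sided permutation test, p = 0.1, the smallest that 3 samples against 3 allow). For the neighbours miR-194-5p and miR-215-5p on chromosome 1 there were 0.346, 0.459 and 0.462 counts of miR-194-5p per count of miR-215-5p in control, against 1.15, 1.11 and 0.524 with RUNX1. This log2 ratio, added after the values were seen, differed by 1.06 (exact two-sided permutation test, p = 0.1). Over the 6 ratios computed, the Benjamini-Hochberg adjusted p was 0.3 for each of these 3.

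**Figure D3:**
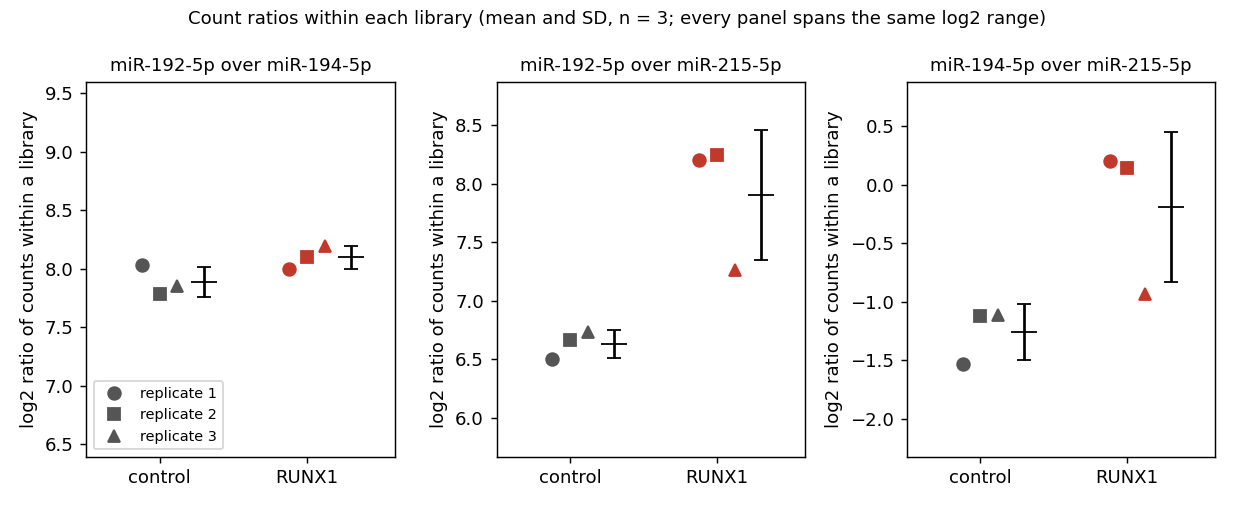
Log2 ratio of the counts of 2 microRNAs within each library (y axis) in control and RUNX1 samples, with the replicate number as the symbol and the mean and SD of 3 samples as black bars; all panels span the same log2 range. The ratio of miR-192-5p to miR-194-5p overlaps between conditions, and the ratios to miR-215-5p are higher in all RUNX1 samples, with replicate 3 nearest to control.

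The passenger arms of the miR-192 and miR-194-2 hairpins were scarce. miR-192-3p, with 9, 15 and 29 counts in control and 34, 29 and 25 with RUNX1, had a log2 fold change of 0.25 (SE 0.351, edgeR, Benjamini-Hochberg adjusted p = 0.563). miR-194-3p, which comes from MIR194-2 only, had 8, 21 and 22 counts in control, against 50, 33 and 37 with RUNX1. Its log2 fold change of 0.75 (SE 0.251, edgeR, Benjamini-Hochberg adjusted p = 0.0281) was called, but was 0.057 and not called with library size alone. Within libraries, the log2 ratio of miR-194-5p to miR-194-3p was 3.73 ± 0.45 in control against 3.22 ± 0.368 with RUNX1 (mean ± SD, n = 3 each, exact two-sided permutation test, p = 0.2). That of miR-192-5p to miR-192-3p was 11.6 ± 0.595 and 11.8 ± 0.359 (exact two-sided permutation test, p = 0.7). In both, the conditions overlapped. miR-215-3p had 1 count in control and 3 in RUNX1 libraries.

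The centred log2 CPM profile over the 6 samples was compared with that of 591 other tested microRNAs by the root mean square difference. The points share library and depth, and the difference between conditions dominates. The nearest profiles to miR-34a-5p were those of miR-181c-5p (0.348), miR-5683 (0.36) and miR-28-3p (0.38), with log2 fold changes of 2.36, 2.31 and 2.16. The profile of miR-34c-5p differed from that of miR-34a-5p by 0.577. For miR-192-5p the nearest were miR-140-3p (0.0402), let-7e-5p (0.0701) and miR-21-5p (0.0772), all with log2 fold changes from 0.31 to 0.40. miR-194-5p lay 0.139 from miR-192-5p, and miR-215-5p 0.713.

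Other microRNAs linked to p53 were taken as a list of 12, of which 11 had counts and 9 were tested. The fit called 7 up-regulated and 1 down-regulated. Of all tested microRNAs 33.4% were called up-regulated and 22.6% down-regulated. The median log2 fold change was 0.97 over the 9 beside 0.11 over all tested microRNAs. Whether the list differed from the rest was not tested. With library size alone, 2 were called up-regulated and 2 down-regulated. miR-143-3p, whose processing p53 promotes, had 18.7 ± 1.42 CPM in control against 1986 ± 103 CPM with RUNX1 (mean ± SD, n = 3 each), and ranked first among the 598 microRNAs with a log2 fold change of 6.74. Its cluster partner miR-145-5p had 54.5 ± 3.2 CPM in control against 95.9 ± 13.1 CPM with RUNX1 (mean ± SD, n = 3 each), which is a log2 fold change of 0.81 that was 0.11 with library size alone. miR-107, which lies in a PANK1 intron, had a log2 fold change of 1.34 and of 0.62 with library size alone. The epithelial miR-141-3p and miR-200c-3p had log2 fold changes of 1.17 and 0.97, and the cell cycle regulator miR-15a-5p of 1.08, and these were 0.47, 0.26 and 0.36 with library size alone. The abundant miR-22-3p had 39322 ± 1336 CPM in control against 63393 ± 3626 CPM with RUNX1 (mean ± SD, n = 3 each), which is a log2 fold change of 0.69 that turned to -0.016 with library size alone. miR-1246 was the down-regulated entry, with 24, 110 and 105 counts in control and 7, 1 and 10 with RUNX1, and a log2 fold change of -4.13 (SE 0.413), and passed the filter through the control samples only. It matches a stretch of U2 small nuclear RNA, and fragments of U2 were not told apart from it here. miR-16-5p was scarce, with 6.67 ± 1.66 CPM in control against 6.72 ± 1.85 CPM with RUNX1 (mean ± SD, n = 3 each). It was not called, with a log2 fold change of -0.035 (SE 0.268), which does not show that it was unaffected. With library size alone it was called down-regulated at -0.74. miR-149-3p had 1 count, miR-203a had 3 and miR-605-5p had none in all libraries together.

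Since miR-192, miR-194 and miR-215 are enriched in liver and gut and miR-34b/c in ciliated epithelium, markers of other cell types were read in the same libraries. In bulk samples fewer cells of a type and less RNA per cell cannot be told apart. Of the hepatocyte markers, miR-122-5p had at most 1.05 CPM in control, against 1.13 CPM with RUNX1, and miR-122-3p had no counts. The 7 epithelial markers had a summed level of 123 to 132 CPM in control, against 336 to 388 CPM with RUNX1. On the TMM scale 4 of the 5 tested were called up-regulated, beside 33.4% of all tested microRNAs. These include miR-141-3p and miR-200c-3p, which are also on the p53-linked list and were not called with library size alone. The other tested marker, miR-200b-3p, had 17.3 ± 0.163 CPM in control against 13.1 ± 3.07 CPM with RUNX1 (mean ± SD, n = 3 each). Its log2 fold change of -0.41 was not called with TMM scaling, but was called down-regulated at -0.60 with scaling on microRNAs and at -1.12 with library size alone. Most of the sum was miR-375, with a log2 fold change of 1.40, and miR-205-5p with 6.20, and these were 0.69 and 5.52 with library size alone. miR-205-5p would not have passed the filter on low counts without the RUNX1 samples. The part of these markers in the changes of miR-34a-5p and miR-34c-5p was not tested. The 6 muscle markers summed to 3.16 to 5.74 CPM in control and 14.6 to 15.2 CPM with RUNX1, and 4 of the 6 were not tested. miR-1 had 0, 1 and 0 counts in control, against 70, 29 and 42 with RUNX1, and passed the filter through the RUNX1 samples only. miR-499a-5p was called up-regulated with a log2 fold change of 1.13, which was 0.42 and not called with library size alone. The neuronal miR-124-3p had no counts and miR-9-5p had at most 0.263 CPM.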

How the data were processed

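Small RNA libraries were made by the authors from 1000 ng of total RNA with the TruSeq Small RNA kit and demultiplexed with CASAVA 1.8.2, and the submitters' processing notes name hg19. The study's methods name the OASIS platform with standard parameters. The aligner and the treatment of reads with several matches are not given in the sources used here. The deposited values are raw read counts per small RNA, without normalization. The 5 summary lines at the end of each file, which hold 0 counts, were left out.

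Groups and replicate numbers came from the sample titles. In the library names, RUNX1 replicates 1 and 2 both have the number 2. Whether they come from separate transductions could not be checked from the labels, and the tests treat them as independent. With edgeR 4.0.16 (R 4.3.3, limma 3.58.1), small RNAs were filtered by filterByExpr (minimum count 10, minimum total count 15), TMM factors were computed, and a quasi-likelihood model of condition alone was fitted (glmQLFit, glmQLFTest). The SE is the log2 fold change over the root of F. CPM of untested entries used the same scaled library sizes. Ratios within libraries were computed where all counts were at least 1 and compared by exact permutation tests. Pooled counts of sparse members were compared with an exact binomial interval. No library was a copy of another: chi-square statistics between replicates were 9.62 to 451 times their degrees of freedom. Scripts were tested on simulated data. Alternatives were DESeq2 1.42.0, other scalings, filters and call rules, a replicate block and each library left out.

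Named microRNAs were the members, the other arms of their hairpins, microRNAs with a member's seed, a p53-linked list, cell type markers, and the 3 nearest profiles to miR-34a-5p and to the most abundant member. The members and lists were chosen with earlier results of these data known. A further list fixed with these is not reported here.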

Additional observations from a re-analysis of the deposited data

How the results depend on the processing

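The fold changes of miR-34a-5p, miR-34c-5p and miR-215-5p kept their direction and their call under every alternative that gave a value. Where every sample had to hold 10 counts, the miR-34 members did not pass the filter, so 0 members were called up-regulated instead of 2. With library size alone 2 members were called down-regulated instead of 1, the log2 fold change of miR-192-5p was -0.30 and that of miR-194-5p -0.52, and with scaling on microRNAs that of miR-194-5p was -0.012. The median of all tested small RNAs shifted with these scalings. Library size alone called 120 small RNAs up-regulated and 521 down-regulated, instead of 265 and 280. On the p53-linked list it called 2 up-regulated instead of 7 and 2 down-regulated instead of 1. With the stricter filter 0 of the p53-linked list were down-regulated.

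Leaving out each library in turn gave log2 fold changes from 2.08 to 3.39 for miR-34a-5p, from 1.79 to 2.08 for miR-34c-5p, from 0.34 to 0.55 for miR-192-5p, from 0.11 to 0.37 for miR-194-5p and from -1.03 to -0.65 for miR-215-5p. The value of 0.55, without RUNX1 replicate 3, passed the threshold. The difference of the log2 ratio of miR-192-5p to miR-192-3p ranged from -0.094 to 0.49, that of miR-192-5p to miR-215-5p from 1.10 to 1.59, that of miR-194-5p to miR-215-5p from 0.86 to 1.43, that of miR-192-5p to miR-194-5p from 0.16 to 0.28, that of miR-34c-5p to miR-34a-5p from -1.35 to -0.0085, that of miR-194-5p to miR-194-3p from -0.77 to -0.33, and 2 to 3 members were called up-regulated.

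The replicate numbers of the titles, which differ from the number in the library name for RUNX1 replicate 1, did not pair the samples. The deviations of same-numbered samples correlated at -0.0601, -0.121 and -0.0656, and those of differently numbered samples at 0.0027 to 0.0622. With the replicate number as a block, 259 small RNAs were up-regulated and 287 down-regulated, 2 members were up-regulated and 1 down-regulated, and the log2 fold changes were 2.71 for miR-34a-5p, 1.93 for miR-34c-5p, 0.40 for miR-192-5p, 0.18 for miR-194-5p and -0.86 for miR-215-5p. Depth limits miR-34a-3p, miR-34b-5p and miR-34c-3p, whose counts per library were at most 15.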

Other observations

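miR-192-5p took 1.5% ± 0.0872 of the microRNA counts in control, against 1.10% ± 0.0297 with RUNX1 (mean ± SD, n = 3 each, exact two-sided permutation test, p = 0.1, the smallest possible), lower in 3 of 3 RUNX1 samples. With miR-10a-5p left out of the microRNA counts, a choice made after the values were seen, the shares were 1.63% ± 0.107 and 1.57% ± 0.0372 (exact two-sided permutation test, p = 0.5), and the conditions overlapped. On the TMM scale the level of the same microRNA was higher in 3 of 3 RUNX1 samples.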
